A study of Mus musculus with 24 samples.

Results

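The cerebellum was compared with the hippocampus in wild-type (Npc1+/+) mice, using 8 of the 24 gene-level RNA libraries of the series. The members are the 4 cerebellar and the 4 hippocampal libraries labelled Npc1+/+ and vehicle, and the cerebellum is set against the hippocampus of the same mouse. The 4 animals were females of the BALB/cNctr-Npc1m1N/J strain at postnatal day 65 and carried no mutant allele according to their genotype label. They had been injected intraperitoneally with the vehicle alone, a mix of PBS and PEG400, on 5 days per week from postnatal day 28, so they are injected controls and not untreated mice. Each gave both tissues. The other 16 libraries come from Npc1-/- mice of both sexes at postnatal day 63, a model of Niemann-Pick disease type C, given vehicle or dipyridamole at 30 mg/kg. The vehicle group, 3 males and 1 female, is set against the wild types in 1 comparison at the end. Bulk RNA of the whole dissected tissue was read with the Ion AmpliSeq Transcriptome panel, which amplifies a short fragment of each gene, so levels are compared between tissues for 1 gene and never between genes.

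The cerebellar cortex is built from granule cells, whose parallel fibres excite the dendrites of Purkinje cells, from inhibitory interneurons, and from Bergmann glia, the astrocytes that ensheath those dendrites. The hippocampus is built from the pyramidal cells of the CA fields and the granule cells of the dentate gyrus, which are glutamatergic neurons of the forebrain with strong synaptic plasticity, and from GABAergic interneurons that migrate in from the ventral forebrain. Hindbrain and forebrain neurons are specified by different transcription factors, many of which stay on in the adult.

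The 8 libraries held between 6767704 and 11590081 counts, with a median of 8308817. Levels are given as CPM, the counts scaled to a common library size after TMM normalization, in the order of mouse 1 to mouse 4, and averages with their SD over the 4 mice. Pearson correlations of log2 levels ran from 0.974 to 0.988 among cerebellar libraries, from 0.941 to 0.977 among hippocampal ones, and were as low as 0.783 between tissues. The first principal component held 81.6% of the variance and separated the tissues. Hippocampal libraries varied more: among 10188 genes, 371 cerebellar genes (3.64%) spanned more than 2-fold over the 4 mice, and 1210 hippocampal genes (11.9%) did. The second component held 8.73% of the variance and set the hippocampus of mouse 1 furthest from that of mouse 4. It stood at -32.5, -0.400, 3.92 and 31.3 in the hippocampi and at 13.2, -4.95, 5.50 and -16.0 in the cerebella. In choroid plexus RNA a different split was seen, with the hippocampi of mice 1 and 2 apart, described with the other neighbouring tissues further on.

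Of 12592 genes tested with edgeR's quasi-likelihood test, 2103 (16.7%) were higher in the cerebellum and 2297 (18.2%) were lower at an adjusted p of 0.05 or less, 34.9% in either direction. With a change of at least 2-fold in addition, 1139 (9.05%) were higher and 1410 (11.2%) were lower. The median log2 fold change of all tested genes was 0.01. The direction was the same in all 4 mice for 4317 of the 4400 called genes (98.1%). These were called from the same 4 differences, so that share is no separate support for the calls. Among all tested genes, the ranges of the tissues did not overlap for 5013 (39.8%). A log2 fold change beyond 3 was found for 204 higher and 272 lower called genes. Without mouse 3, 2740 genes were called, and without mouse 2, 1343 were higher. In what follows a gene is called higher or lower only if it passed that test. Fold changes are cerebellum over hippocampus with their standard error (SE), adjusted p-values are from the same test with the Benjamini-Hochberg correction over all genes. Each count in a gene list is to be read against 16.7% higher and 18.2% lower.

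**Figure D1:**
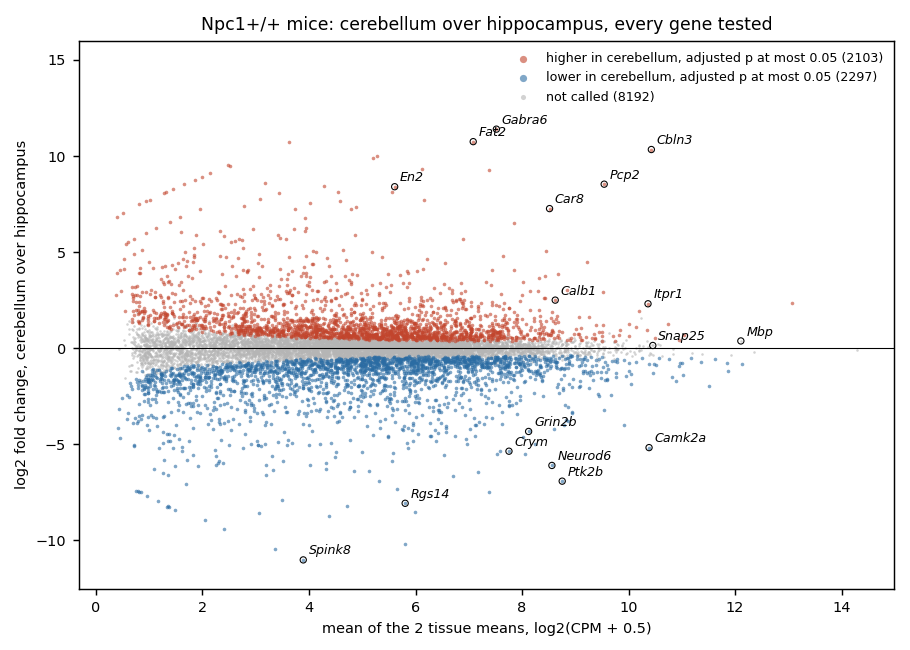
Log2 fold change of cerebellum over hippocampus (vertical axis) against the mean level of the 2 tissues as log2(CPM + 0.5) (horizontal axis), 1 point per tested gene; red points are called higher in the cerebellum (2103), blue ones lower (2297) and grey ones not called (8192). The labelled cerebellar genes Gabra6, Cbln3 and Pcp2 lie above 8 and Spink8 below -10, where Spink8 has no count in any cerebellum and its fitted value is no bound.

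Purkinje cells are the output neurons of the cerebellar cortex, and their RNA was plainly present in the cerebellar libraries. Pcp2, a regulator of G-protein signalling used to mark these cells, had 1108, 1494, 1518 and 1824 CPM in the cerebellum, against 7.50, 2.15, 2.99 and 3.68 CPM in the hippocampus. All 4 cerebella lay above all 4 hippocampi, a condition for a place among the top genes (log2 fold change 8.54 ± 0.40, adjusted p = 8.44e-07). Car8, a partner of the inositol trisphosphate receptor, had 669, 699, 867 and 670.3 CPM in the cerebellum, against 4.06, 4.53, 6.25 and 4.14 CPM in the hippocampus, again without overlap (log2 fold change 7.27 ± 0.17, adjusted p = 1.26e-07). Calb1 and Itpr1 were named after their values were seen, as textbook members of the list. The calcium buffer Calb1, which dentate granule cells also make, had 682, 712, 640.3 and 643 CPM in the cerebellum, against 104, 118, 131 and 120.2 CPM in the hippocampus. Its log2 fold change was 2.50 ± 0.14 (SE, adjusted p = 2.21e-06). The receptor Itpr1 itself had 2676, 1928, 2574 and 1605 CPM in the cerebellum, against 328, 499, 398 and 534 CPM in the hippocampus. This gave a log2 fold change of 2.31 ± 0.24 (SE, adjusted p = 7.69e-05). Both were also read in every hippocampus, at levels that did not reach those of any cerebellum.

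Of 34 Purkinje cell genes, 33 were tested, 29 were higher and 3 were lower, with a median log2 fold change of 2.7. Ppp1r17, a phosphatase inhibitor and substrate of cyclic GMP-dependent kinase, had 151, 125, 164 and 113 CPM in the cerebellum, against 0.452, 0, 0.136 and 0.153 CPM in the hippocampus. The log2 fold change was 9.32 ± 0.36 (SE, adjusted p = 3.61e-07). The transcription factor Lhx1 averaged 31.2 ± 3.33 CPM in the cerebellum and 0.127 ± 0.148 CPM in the hippocampus. Skor2, a corepressor needed for Purkinje cell differentiation, had 12.4, 7.43, 8.23 and 12.8 CPM in the cerebellum and no count in any hippocampus, which puts it at least 114-fold higher when 3 counts are allowed over the 4 hippocampal libraries. The lower members included Itpka, a kinase of inositol trisphosphate in dendritic spines (log2 fold change -1.70 ± 0.20), and the zinc finger factor Bcl11a (-2.94 ± 0.20), which hippocampal neurons make as well. The summed level of the list was between 10190 and 11320 CPM in the cerebella and between 2761 and 2881 CPM in the hippocampi. In bulk tissue, fewer cells of a type and less RNA per cell cannot be told apart.

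The genes Gabra6 and Fat2 of cerebellar granule cells had the highest fold changes among the genes named here. Gabra6, the GABA-A receptor subunit of granule cells (GRCm39, chr11:42197264-42211899, minus strand), had 311, 315, 466 and 371 CPM in the cerebellum, against 0.361, 0, 0 and 0 CPM in the hippocampus. The only hippocampal reads were in mouse 1, and the tissues did not overlap, as the choice of top genes required (log2 fold change 11.40 ± 0.45, adjusted p = 3.61e-07). Cbln3, a secreted cerebellin (chr14:56116370-56121849, minus strand), had 3230, 2356, 3292 and 2125 CPM in the cerebellum, against 4.24, 2.15, 0.815 and 1.38 CPM in the hippocampus, and the hippocampal reading was above 0 in every mouse (log2 fold change 10.34 ± 0.37, adjusted p = 3.61e-07). Fat2, a giant protocadherin of parallel fibres, had 286, 291, 228 and 275 CPM in the cerebellum, against 0.452, 0, 0 and 0 CPM in the hippocampus. That is a log2 fold change of 10.75 ± 0.45 (SE, adjusted p = 4.27e-07). Cbln1, the cerebellin that bridges parallel fibres to Purkinje cells, had 466, 360.1, 406 and 574 CPM in the cerebellum, against 4.06, 3.58, 2.71 and 12.4 CPM in the hippocampus. The test gave a log2 fold change of 6.50 ± 0.29 (SE, adjusted p = 7.07e-07). Of 30 genes in the list, 26 were tested, 22 were higher and 2 were lower, with a median of 2.56. Among the higher ones, Zic1, a zinc finger factor of granule cells named after its value was seen, averaged 20.5 ± 2.56 CPM in the cerebellum and 0.358 ± 0.206 CPM in the hippocampus. The homeobox factor Uncx averaged 46.4 ± 7.44 CPM in the cerebellum and 0.194 ± 0.281 CPM in the hippocampus. The lower pair was Ppp1r1a, protein phosphatase inhibitor-1 (log2 fold change -2.61 ± 0.17), and the vesicle protein Svop (-0.85 ± 0.14). Neurod1, Etv1, Zic4 and Zic5 read near 0 in both tissues on this panel and were not tested, which says nothing of their expression.

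**Figure D2:**
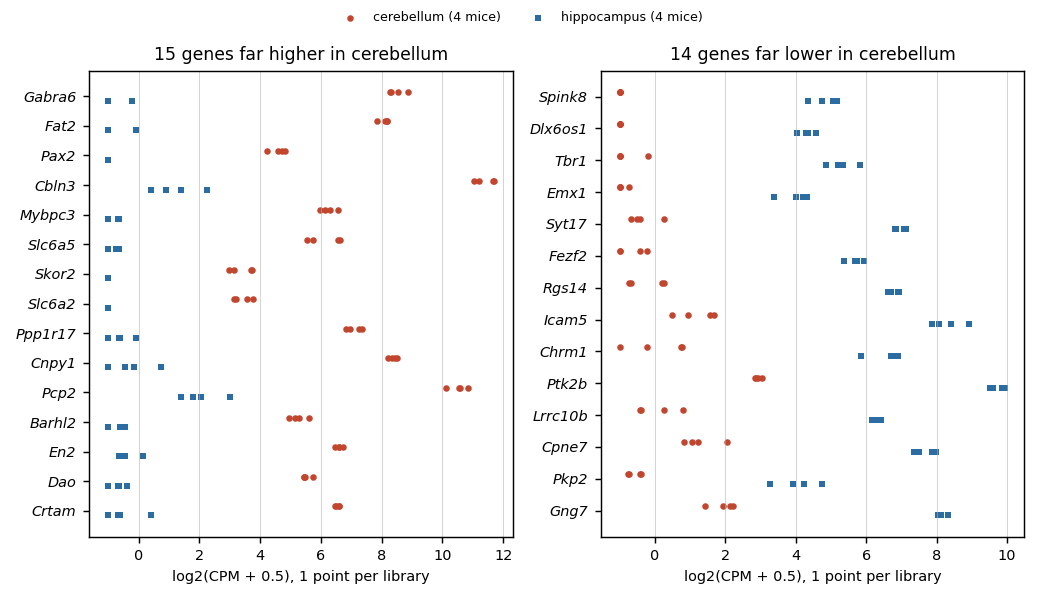
Levels of the 15 named genes with the highest (left panel) and 14 of the 15 with the lowest (right panel) log2 fold change as log2(CPM + 0.5), 1 point per library, with cerebellum as red circles and hippocampus as blue squares. The genes were ranked among called genes with no overlap between tissues, so in each of the 29 the tissues lie apart by that choice. Points at -1 are libraries with no count.

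The promoters of the first 3 genes at each end of the ranking with a single annotated start are printed to show the sequence at these genes. They run from 250 bases before to 50 bases after the start (RefSeq, GRCm38.p6), 5′ to 3′ on the gene's strand. Of the 30 genes at the ends, 17 had a promoter in the RefSeq table and 10 of these had 1 start. Capitals mark the letters TGCCAA, the reverse complement of TTGGCA, letters found in sites of nuclear factor I proteins. The first 3 are the genes higher in the cerebellum, Gabra6 (chr11:42321023-42321322, minus), Fat2 (chr11:55312208-55312507, minus) and Cbln3 (chr14:55884207-55884506, minus).
Gabra6: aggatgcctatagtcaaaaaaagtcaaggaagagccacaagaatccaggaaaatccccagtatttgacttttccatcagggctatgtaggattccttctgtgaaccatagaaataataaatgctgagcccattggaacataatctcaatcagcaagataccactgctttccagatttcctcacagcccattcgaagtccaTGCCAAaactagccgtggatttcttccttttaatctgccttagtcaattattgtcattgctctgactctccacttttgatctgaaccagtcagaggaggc
Fat2: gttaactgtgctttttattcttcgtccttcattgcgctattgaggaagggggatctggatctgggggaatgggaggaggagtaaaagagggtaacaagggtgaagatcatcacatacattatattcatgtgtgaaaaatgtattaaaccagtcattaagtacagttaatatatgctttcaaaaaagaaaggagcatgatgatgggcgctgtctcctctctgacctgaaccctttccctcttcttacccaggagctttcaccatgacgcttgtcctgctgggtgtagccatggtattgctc
Cbln3: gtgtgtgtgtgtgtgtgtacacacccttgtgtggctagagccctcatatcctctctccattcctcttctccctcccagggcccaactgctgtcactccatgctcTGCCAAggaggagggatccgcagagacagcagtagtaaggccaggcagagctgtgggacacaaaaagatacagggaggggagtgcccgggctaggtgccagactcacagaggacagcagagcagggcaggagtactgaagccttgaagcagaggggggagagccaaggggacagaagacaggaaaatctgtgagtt
The other 3 are the genes lower in the cerebellum, Tbr1 (chr2:61804203-61804502, plus), Emx1 (chr6:85187681-85187980, plus) and Fezf2 (chr14:12345816-12346115, minus).
Tbr1: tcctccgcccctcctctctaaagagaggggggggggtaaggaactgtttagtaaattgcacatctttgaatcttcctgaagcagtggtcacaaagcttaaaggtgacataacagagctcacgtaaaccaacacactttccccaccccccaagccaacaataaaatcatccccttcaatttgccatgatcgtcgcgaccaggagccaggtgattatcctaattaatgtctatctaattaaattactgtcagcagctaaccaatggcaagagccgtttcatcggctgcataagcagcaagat
Emx1: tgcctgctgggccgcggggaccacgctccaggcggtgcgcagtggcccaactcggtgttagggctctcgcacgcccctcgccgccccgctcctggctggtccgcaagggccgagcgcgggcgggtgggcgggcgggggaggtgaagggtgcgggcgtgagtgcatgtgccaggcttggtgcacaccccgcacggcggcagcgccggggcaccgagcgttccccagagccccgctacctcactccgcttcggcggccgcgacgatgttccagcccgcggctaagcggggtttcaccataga
Fezf2: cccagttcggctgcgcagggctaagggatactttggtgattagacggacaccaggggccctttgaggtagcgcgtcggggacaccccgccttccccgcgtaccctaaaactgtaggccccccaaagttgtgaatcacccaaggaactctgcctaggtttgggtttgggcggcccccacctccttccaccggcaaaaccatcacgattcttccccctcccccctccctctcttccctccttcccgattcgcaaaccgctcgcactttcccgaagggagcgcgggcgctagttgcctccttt
On both strands, 6 motifs were searched. TTGGCA was found on the minus strand with its first base at -50 in Gabra6 and at -146 in Cbln3, and in 14.1% of 32851 promoters of the same length. No match to CAGATG (17.2% of promoters), CAGCTG (16.3%), TAGGTCA (2.61%), TGACGTCA (1.79%) or TATAAA (13.6%) lay in the 6 windows, so no match overlapped that of another motif. A match is a run of letters and not a measured site.

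Genes of the inhibitory interneurons and unipolar brush cells of the cerebellum also had clear readings. Slc6a5, the glycine transporter of Golgi cells, had 53.0, 93.2, 45.9 and 99.1 CPM in the cerebellum, against 0.0903, 0, 0.136 and 0 CPM in the hippocampus, with 2 reads over the 4 hippocampi and a ratio of 1210 (95% interval 334 to 9970, counting error only). Pax2, a factor of immature cerebellar interneurons, had 23.4, 25.7, 18.1 and 27.5 CPM in the cerebellum and no count in any hippocampus, at least 265-fold higher. Eomes, a T-box factor of unipolar brush cells, averaged 11.0 ± 2.86 CPM in the cerebellum and 0.203 ± 0.199 CPM in the hippocampus. Tfap2b averaged 11.7 ± 3.60 CPM in the cerebellum and 0.226 ± 0.286 CPM in the hippocampus. All 20 genes of the list were tested, with 12 higher, 7 lower and a median of 1.75. The lower ones included the glutamate autoreceptor Grm2 (log2 fold change -1.70 ± 0.22) and the complexin Cplx3 (-3.23 ± 0.43). Bergmann glia genes were mostly higher: 13 of 18 tested (19 in the list), with 2 lower and a median of 1.62. Gdf10, a growth factor of the TGF-beta family that marks Bergmann glia, had 116, 87.8, 121 and 100.5 CPM in the cerebellum, against 9.84, 11.0, 12.1 and 7.82 CPM in the hippocampus. The difference was 3.38 ± 0.18 (SE, adjusted p = 1.45e-06) on the log2 scale. Dao, the enzyme that degrades D-serine, averaged 45.9 ± 5.07 CPM in the cerebellum and 0.132 ± 0.111 CPM in the hippocampus. Gli1, the transcriptional readout of hedgehog signalling, averaged 29.6 ± 3.47 CPM in the cerebellum and 5.04 ± 1.11 CPM in the hippocampus.

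Genes of the hippocampal principal neurons were mostly lower in the cerebellum: 31 of 35 tested (38 in the list), with 1 higher and a median of -2.82. Camk2a, the alpha subunit of the calcium- and calmodulin-dependent kinase of excitatory synapses, had 71.7, 65.6, 88.6 and 65.2 CPM in the cerebellum, against 2571, 2484, 2628 and 2713 CPM in the hippocampus. Its log2 fold change was -5.17 ± 0.16 (SE, adjusted p = 2.56e-07). Neurod6, a helix-loop-helix factor of pyramidal cells, had 10.8, 11.3, 8.87 and 12.4 CPM in the cerebellum, against 858, 767, 701 and 647 CPM in the hippocampus. This gave a log2 fold change of -6.10 ± 0.19 (SE, adjusted p = 2.56e-07). Rgs14, a signalling regulator of the CA2 field, averaged 0.391 ± 0.324 CPM in the cerebellum and 110.5 ± 11.4 CPM in the hippocampus, a log2 fold change of -8.06 ± 0.37. Spink8 had no count in any cerebellum and 35.8, 26.5, 32.9 and 19.8 CPM in the hippocampus, at least 370-fold lower in the cerebellum. The thyroid hormone binding protein Crym, named after its value was seen, averaged 10.2 ± 0.834 CPM in the cerebellum and 421 ± 62.8 CPM in the hippocampus. The single higher member was Cacng5, an AMPA receptor auxiliary subunit of CA2 (log2 fold change 1.08 ± 0.17). The summed level of the list lay between 2627 and 2711 CPM in the cerebella and between 8987 and 9252 CPM in the hippocampi.

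Genes of hippocampal GABAergic interneurons were mixed, with 6 of 20 tested higher (28 in the list), 11 lower and a median of -0.62. The peptide genes that define forebrain interneuron classes were lower. Somatostatin, Sst, had 46.0, 70.3, 37.7 and 73.8 CPM in the cerebellum, against 399, 417, 376 and 313 CPM in the hippocampus (log2 fold change -2.77 ± 0.22, adjusted p = 1.37e-05). Cholecystokinin, Cck, averaged 19.5 ± 3.27 CPM in the cerebellum and 294 ± 23.8 CPM in the hippocampus. Lhx6, a factor of interneurons from the medial ganglionic eminence, averaged 0.348 ± 0.120 CPM in the cerebellum and 21.4 ± 3.56 CPM in the hippocampus (log2 fold change -5.88 ± 0.30). The noncoding Dlx6os1, from the locus of forebrain interneuron homeobox genes, had no count in any cerebellum and 19.2, 23.5, 15.8 and 19.9 CPM in the hippocampus, at least 245-fold lower. Calretinin, Calb2, was higher at 587 ± 104 CPM in the cerebellum and 50.3 ± 25.1 CPM in the hippocampus. Proenkephalin, Penk, was higher too, at 112 ± 12.1 CPM in the cerebellum and 22.9 ± 1.16 CPM in the hippocampus. Both are also made by cerebellar granule, brush or Golgi cells. Without mouse 2 the list held 3 higher and 10 lower, and without mouse 3 it held 3 higher and 9 lower. Of 9 tested genes of newborn neurons and dividing cells, 6 were lower and 1, Calb2, was higher. Doublecortin, Dcx, a microtubule protein of migrating neurons, was lower at 11.2 ± 1.65 CPM in the cerebellum and 27.6 ± 2.50 CPM in the hippocampus, as was Sox11 at 2.67 ± 0.788 CPM in the cerebellum and 8.26 ± 2.99 CPM in the hippocampus.

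Transcription factors of brain patterning separated the tissues in opposite directions. Of 36 tested factors of hindbrain and cerebellum (47 in the list), 32 were higher and none was lower, with a median of 4.84. En2, a homeobox gene of the midbrain and hindbrain border, had 106, 95.2, 87.8 and 96.4 CPM in the cerebellum, against 0.181, 0.238, 0.136 and 0.613 CPM in the hippocampus. The log2 fold change was 8.40 ± 0.31 (SE, adjusted p = 3.61e-07). Barhl2 had 30.3, 34.6, 48.0 and 38.2 CPM in the cerebellum, against 0, 0.238, 0 and 0.153 CPM in the hippocampus, with 3 reads over the hippocampi and a ratio of 410 (95% interval 140 to 1990). Of 29 tested forebrain factors (34 in the list), 22 were lower and none was higher, with a median of -1.57. Tbr1, a T-box factor of glutamatergic forebrain neurons, had 0, 0, 0 and 0.365 CPM in the cerebellum, against 28.4, 36.5, 40.2 and 56.7 CPM in the hippocampus, a ratio of 481 (95% interval 164 to 2340) in favour of the hippocampus. Emx1 had 0, 0.100, 0 and 0 CPM in the cerebellum, against 15.4, 9.90, 18.1 and 19.6 CPM in the hippocampus, a ratio of 578 (103 to 22900), also in favour of the hippocampus. Fezf2 averaged 0.148 ± 0.176 CPM in the cerebellum and 51.2 ± 8.24 CPM in the hippocampus (log2 fold change -8.19 ± 0.46). Without mouse 1 the hindbrain list had 1 lower gene, and without mouse 4 the forebrain list had 1 higher. Hox genes, which pattern the hindbrain behind the cerebellum and the spinal cord, had few reads, and 1 of 22 passed the filter and was tested, which says nothing of the expression of the others. This gene, Hoxb2, had 6.72, 5.12, 3.47 and 4.38 CPM in the cerebellum, against 0, 0, 0.136 and 0 CPM in the hippocampus, a ratio of 170 (30.2 to 6760) in favour of the cerebellum on 1 hippocampal read. Hoxc4, not tested and named after its value was seen, had 1.74, 2.41, 0.386 and 1.95 CPM in the cerebellum and no count in any hippocampus, at least 18.7-fold higher. Hoxa4 and Hoxb4, named likewise, were also read in all 4 cerebella and in no hippocampus.

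RNA of ionotropic glutamate receptors differed by subunit. Grin2c, the NMDA receptor subunit of mature granule cells, had 499, 449, 426 and 405 CPM in the cerebellum, against 70.2, 68.7, 56.6 and 64.4 CPM in the hippocampus. That is a log2 fold change of 2.78 ± 0.14 (SE, adjusted p = 1.02e-06). Grin2b, the subunit with slow decay, had 29.3, 36.2, 17.6 and 24.6 CPM in the cerebellum, against 569.9, 512, 583 and 454 CPM in the hippocampus (log2 fold change -4.33 ± 0.22, adjusted p = 1.09e-06). Grin2a had 223, 204, 238 and 197 CPM in the cerebellum, against 751, 895, 858 and 938 CPM in the hippocampus. The test gave a log2 fold change of -2.0 ± 0.15 (SE, adjusted p = 9.10e-06). No cerebellum overlapped a hippocampus for any of these subunits, with Grin2c high in the cerebellum and Grin2a and Grin2b high in the hippocampus. The delta receptor Grid1 was lower (log2 fold change -1.04 ± 0.17). Grin1, the obligatory NMDA receptor subunit, read near 0 in both tissues on this panel and was not tested. Of the 7 tested NMDA and delta genes, 3 were higher and 4 were lower, with Grin2d among the higher and Grin3a among the lower ones. Grin2d lost its call without mouse 2 (adjusted p = 0.09) and without mouse 3 (adjusted p = 0.0501), and Grin3a without mouse 2, 3 or 4 (adjusted p = 0.169, 0.113 and 0.125).

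Among AMPA receptor subunits, Gria4 had 677, 553, 654 and 465 CPM in the cerebellum, against 77.2, 82.5, 105 and 122 CPM in the hippocampus (log2 fold change 2.61 ± 0.20, adjusted p = 1.28e-05). It is made by Bergmann glia and granule cells. Gria1 had 573, 421, 469 and 373 CPM in the cerebellum, against 933, 1451, 1192 and 1537 CPM in the hippocampus. The difference was -1.47 ± 0.22 (SE, adjusted p = 0.000669) on the log2 scale. Gria2 (log2 fold change -1.36 ± 0.13) and Gria3 (-1.23 ± 0.20) were lower too, so 1 of the 4 pore subunits was higher and 3 were lower. Auxiliary subunits showed wide differences, all 3 named next being lower. Cacng8 averaged 63.4 ± 3.23 CPM in the cerebellum and 867 ± 45.0 CPM in the hippocampus. Cnih2 averaged 41.1 ± 3.49 CPM in the cerebellum and 435 ± 35.5 CPM in the hippocampus. The kainate receptor partner Neto1 averaged 19.0 ± 1.76 CPM in the cerebellum and 274 ± 28.7 CPM in the hippocampus. Stargazin, Cacng2, the auxiliary subunit whose loss causes ataxia in mice, was higher (log2 fold change 0.94 ± 0.20), as were Cacng7 (0.84 ± 0.13) and Neto2 (0.97 ± 0.19). Kainate receptor subunits Grik4 (log2 fold change -1.59 ± 0.16) and Grik5 (-1.71 ± 0.17) were lower, and Grik1 (0.25 ± 0.20) and Grik3 (0.24 ± 0.17) did not pass. All 21 genes of the list were tested, with 7 higher, 12 lower and a median of -1.23.

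Metabotropic glutamate receptors divided by subtype. Grm4, the presynaptic receptor of parallel fibres, had 709.7, 587, 762 and 647 CPM in the cerebellum, against 17.9, 19.0, 18.5 and 25.9 CPM in the hippocampus. Its log2 fold change was 5.07 ± 0.19 (SE, adjusted p = 3.61e-07). Homer3, a scaffold of metabotropic receptors in Purkinje cell spines, was also higher (log2 fold change 2.19 ± 0.15). Grm5, the postsynaptic receptor of forebrain neurons, had 35.1, 43.2, 27.2 and 37.2 CPM in the cerebellum, against 323, 385, 376 and 350 CPM in the hippocampus. This gave a log2 fold change of -3.34 ± 0.17 (SE, adjusted p = 1.03e-06). Grm7 (log2 fold change -2.26 ± 0.24) and Homer2 (-3.03 ± 0.25) were lower, and Grm8 did not pass (-0.07 ± 0.18). In all, 3 of 10 tested genes were higher and 6 lower, with a median of -0.84.

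GABA-A and glycine receptors also differed by subunit and not in 1 direction, with 8 of 21 tested higher (25 in the list), 7 lower and a median of 0.23. Glra1, the alpha 1 glycine receptor, had 144, 175, 98.6 and 145 CPM in the cerebellum, against 0.993, 0.954, 0.407 and 0.153 CPM in the hippocampus. The log2 fold change was 7.71 ± 0.30 (SE, adjusted p = 3.61e-07). Gabrd, the delta subunit of tonic inhibition, had 112, 122, 155 and 146 CPM in the cerebellum, against 28.0, 19.8, 24.4 and 22.4 CPM in the hippocampus. That is a log2 fold change of 2.50 ± 0.18 (SE, adjusted p = 6.90e-06). Gabra5, the alpha 5 subunit known from hippocampal pyramidal cells, had 9.24, 14.2, 4.88 and 13.8 CPM in the cerebellum, against 221, 173, 183 and 136 CPM in the hippocampus. The test gave a log2 fold change of -4.14 ± 0.31 (SE, adjusted p = 1.12e-05). None of the 3 genes overlapped between tissues. Gabrb2 (log2 fold change 0.84 ± 0.17), a subunit that granule cells also use, was higher. Gabra2 (log2 fold change -1.67 ± 0.18), Gabra4 (-1.77 ± 0.19) and Gabrb1 (-1.47 ± 0.25) were lower. The glycine receptor beta subunit Glrb did not pass (log2 fold change 0.41 ± 0.15). It passed without mouse 1 (adjusted p = 0.0319) and in the fit without the mouse block (adjusted p = 0.0134).

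**Figure D3:**
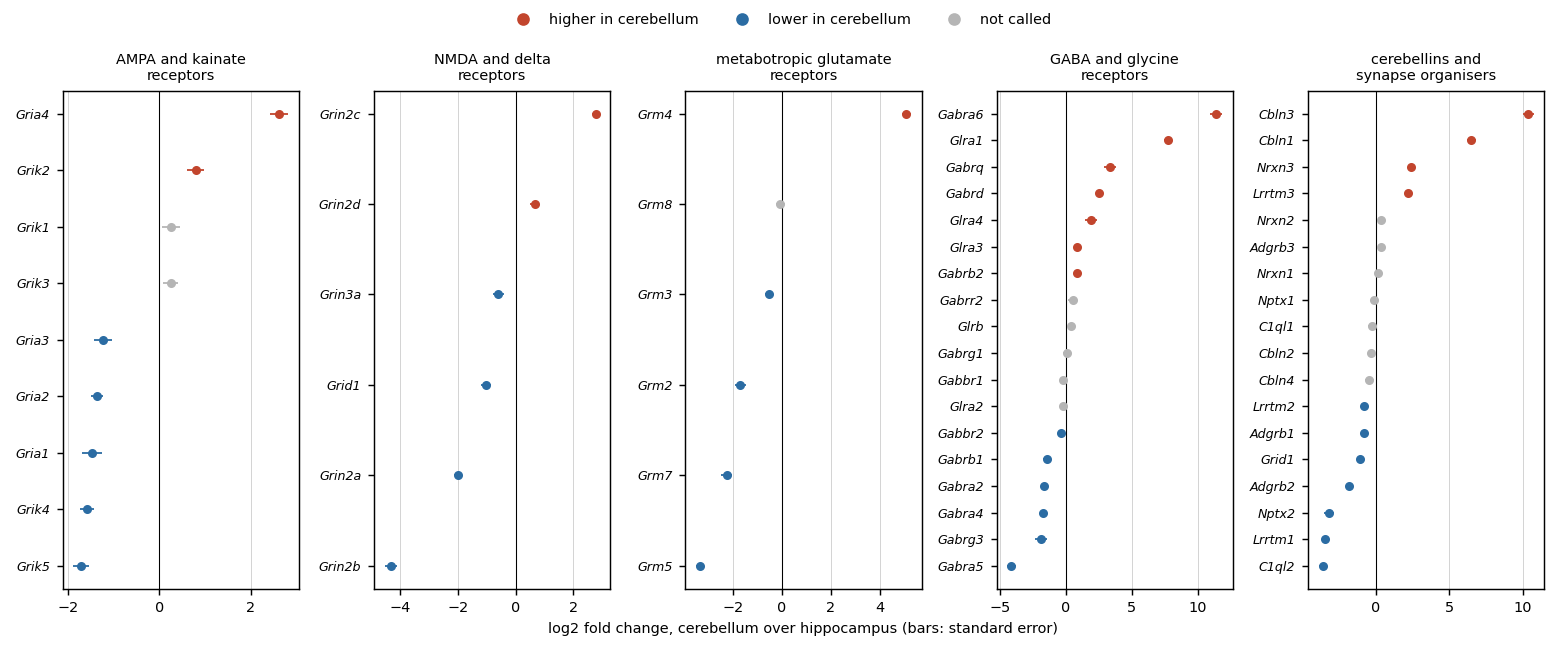
Log2 fold change of cerebellum over hippocampus with its standard error (horizontal axis) for receptor subunits and synapse organisers, 1 row per gene, in red where called higher in the cerebellum, blue where lower and grey where not called. Each family has members on both sides of 0, from 5.07 for Grm4 to -3.34 for Grm5 among metabotropic receptors and from 11.40 for Gabra6 to -4.14 for Gabra5 among GABA and glycine receptors.

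Of 19 tested synapse organisers (23 in the list), 5 were higher, 7 were lower and the median was -0.26. Next to Cbln1 and Cbln3, the higher ones included the neurexin Nrxn3, averaging 220.5 ± 38.5 CPM in the cerebellum and 42.5 ± 9.99 CPM in the hippocampus, and a postsynaptic partner of neurexins, Lrrtm3. That gene averaged 110 ± 11.4 CPM in the cerebellum and 24.1 ± 3.52 CPM in the hippocampus. C1ql2, a secreted relative of cerebellins made by dentate granule cells, averaged 1.04 ± 0.273 CPM in the cerebellum and 12.9 ± 5.68 CPM in the hippocampus. Lrrtm1 averaged 7.81 ± 1.07 CPM in the cerebellum and 85.6 ± 7.24 CPM in the hippocampus. Both were lower. The other cerebellins, Cbln2 (log2 fold change -0.28 ± 0.17) and Cbln4 (-0.42 ± 0.32), did not pass. Postsynaptic scaffolds of excitatory spines were lower for 17 of 24 tested genes (26 in the list) and higher for 3, with a median of -1.30. Icam5, an adhesion molecule of telencephalic dendrites, averaged 1.86 ± 0.841 CPM in the cerebellum and 330.1 ± 109.8 CPM in the hippocampus. Kalrn, a guanine nucleotide exchange factor of spines, averaged 63.1 ± 4.91 CPM in the cerebellum and 839 ± 62.6 CPM in the hippocampus. Dlgap2 averaged 7.75 ± 1.88 CPM in the cerebellum and 115 ± 28.5 CPM in the hippocampus. Of the higher ones, Homer3 kept its call without each mouse in turn, whereas Dlg1 and Gphn lost theirs without mouse 2 (adjusted p = 0.119 and 0.143), which left 1 higher gene. They lost it without mouse 3 as well (adjusted p = 0.0896 and 0.0647).

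Ion channels divided nearly evenly between the tissues. Kcnc1, a fast-deactivating potassium channel of rapidly firing neurons, averaged 421 ± 16.3 CPM in the cerebellum and 78.1 ± 9.41 CPM in the hippocampus (log2 fold change 2.44 ± 0.14, adjusted p = 2.66e-06). Kcng4, a silent subunit, averaged 48.5 ± 9.75 CPM in the cerebellum and 2.01 ± 0.418 CPM in the hippocampus. Kcnv1, another silent subunit, averaged 1.60 ± 0.995 CPM in the cerebellum and 92.1 ± 11.0 CPM in the hippocampus. Kcnip2, a partner of A-type channels, averaged 13.5 ± 1.55 CPM in the cerebellum and 245 ± 36.0 CPM in the hippocampus. Of 38 tested voltage-gated potassium channel genes (42 in the list), 13 were higher and 17 lower, with a median of -0.23, and of 20 tested other potassium channels (26 in the list), 8 were higher and 7 lower, with a median of 0.26 that turned to -0.39 without mouse 3. Among these other channels, Kcnk10 averaged 505 ± 98.5 CPM in the cerebellum and 63.1 ± 6.49 CPM in the hippocampus, and the sodium-activated pair moved apart, with Kcnt1 higher (log2 fold change 2.60 ± 0.19) and Kcnt2 lower (-4.13 ± 0.23). The sodium channel subunit Scn4b, which shapes the resurgent current of Purkinje cells, averaged 181 ± 19.4 CPM in the cerebellum and 24.4 ± 3.57 CPM in the hippocampus. Scn3b averaged 11.3 ± 3.00 CPM in the cerebellum and 265 ± 39.3 CPM in the hippocampus. In all, 5 of 14 tested sodium channel genes were higher and 3 lower, with a median of 0.12. Without mouse 2, 5 other potassium channel genes and 3 sodium channel genes were higher. Without mouse 3, 4 other potassium channel genes were lower and 3 sodium channel genes were higher. The calcium channel list, which also holds other cation channels such as Hcn4, had 7 of 25 higher and 10 lower, with a median of -0.18. It ran from Hcn4 (log2 fold change 2.52 ± 0.24) and Cacna2d2 (2.50 ± 0.18), the gene of the ducky mouse, to Trpc6 (-4.21 ± 0.18) and Trpc4 (-4.46 ± 0.29).

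Calcium handling and plasticity kinases likewise differed by member. Of 31 tested genes of calcium buffering and release (34 in the list), 12 were higher, 11 lower and the median was -0.02. Parvalbumin, Pvalb, a fast buffer of Purkinje cells and interneurons, averaged 763 ± 77.3 CPM in the cerebellum and 53.8 ± 17.7 CPM in the hippocampus (log2 fold change 3.89 ± 0.26). The calcium pump Atp2a3 averaged 178 ± 25.9 CPM in the cerebellum and 8.29 ± 3.29 CPM in the hippocampus (log2 fold change 4.45 ± 0.25). Hippocalcin, Hpca, a sensor named for the hippocampus, averaged 114 ± 17.2 CPM in the cerebellum and 1825 ± 80.3 CPM in the hippocampus (log2 fold change -4.01 ± 0.15). Its relative Hpcal4 averaged 39.4 ± 2.18 CPM in the cerebellum and 733 ± 41.9 CPM in the hippocampus. Neurogranin, Nrgn, averaged 3.54 ± 0.568 CPM in the cerebellum and 84.7 ± 14.2 CPM in the hippocampus. Of 36 tested kinases and phosphatases (37 in the list), 12 were higher and 16 lower, with a median of -0.32. Camk4, the nuclear kinase of granule cells, was higher (log2 fold change 2.08 ± 0.15), as were Plcb4 (3.46 ± 0.16), a phospholipase of Purkinje cells, and Camk2d (2.02 ± 0.16), against Camk2a above. Prkca (log2 fold change -2.09 ± 0.21) and Adcy2 (-2.0 ± 0.22) were lower.

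At the presynaptic side, 11 of 42 tested vesicle genes (43 in the list) were higher and 17 lower, with a median of -0.25. Synaptotagmin 2, Syt2, the fast calcium sensor of hindbrain synapses, had 387, 346, 282 and 293 CPM in the cerebellum, against 16, 17.1, 24.8 and 19.2 CPM in the hippocampus. The difference was 4.09 ± 0.21 (SE, adjusted p = 1.24e-06) on the log2 scale. Its forebrain relative Syt1 averaged 309 ± 40.0 CPM in the cerebellum and 977 ± 122 CPM in the hippocampus (log2 fold change -1.66 ± 0.15). Unc13c, a priming factor of granule cells, was higher (log2 fold change 3.35 ± 0.17), and the vesicular glutamate transporter Slc17a7 was lower (-1.71 ± 0.22). Without mouse 3 the list held 9 higher and 11 lower. Receptors for monoamines, acetylcholine and steroids were lower for 21 of 34 tested genes (44 in the list) and higher for 5, with a median of -1.40. Chrm1, the main muscarinic receptor of forebrain pyramidal cells, averaged 0.681 ± 0.602 CPM in the cerebellum and 98.9 ± 28.3 CPM in the hippocampus (log2 fold change -7.31 ± 0.41). Htr1a, a serotonin autoreceptor and heteroreceptor, averaged 2.03 ± 0.938 CPM in the cerebellum and 20.8 ± 9.86 CPM in the hippocampus. The mineralocorticoid receptor Nr3c2, named after its value was seen, averaged 27.5 ± 4.89 CPM in the cerebellum and 162 ± 20.7 CPM in the hippocampus. The 5 higher genes became 3 without mouse 1 and 2 without mouse 2. Of 29 tested neuropeptides and growth factors (34 in the list), 9 were higher and 14 lower, with a median of -0.68. Fgf7 averaged 28.0 ± 4.48 CPM in the cerebellum and 1.85 ± 0.902 CPM in the hippocampus. Without mouse 2, 5 were higher and 12 lower.

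Immediate early genes, which neurons switch on within minutes of activity, were lower for 17 of 24 tested (27 in the list) and higher for 4, with a median of -1.23. Egr1, named after its value was seen, had 56.0, 73.1, 63.2 and 69.3 CPM in the cerebellum, against 488, 394, 491 and 344 CPM in the hippocampus. Its log2 fold change was -2.71 ± 0.18 (SE, adjusted p = 5.10e-06). Arc, whose product removes AMPA receptors from synapses, averaged 16.4 ± 4.14 CPM in the cerebellum and 114 ± 34.4 CPM in the hippocampus (log2 fold change -2.78 ± 0.25). Egr3 averaged 0.496 ± 0.540 CPM in the cerebellum and 15 ± 1.41 CPM in the hippocampus. Fos, the best known member, was higher instead, with 33.2, 33.0, 53.6 and 38.0 CPM in the cerebellum, against 18.1, 14.6, 28.2 and 22.1 CPM in the hippocampus. A small gap parted the ranges (log2 fold change 0.94 ± 0.16, adjusted p = 0.00176). Dusp5, a phosphatase of ERK, was higher as well (log2 fold change 2.25 ± 0.19). The activity of the mice before death is not given in the labels, and its part in these levels was not tested.

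Adhesion and guidance molecules of axons were lower more often than higher. Of 39 tested guidance genes (40 in the list), 26 were lower and 10 higher, with a median of -1.03; without mouse 3, 24 were lower and 6 higher. The repellent ligand Slit1 had 11.2, 9.84, 6.30 and 9.49 CPM in the cerebellum, against 265, 234, 243 and 210.2 CPM in the hippocampus (log2 fold change -4.70 ± 0.19, adjusted p = 4.17e-07). Robo3, a guidance receptor of the Robo family, averaged 0.669 ± 0.261 CPM in the cerebellum and 22.4 ± 1.90 CPM in the hippocampus. Among ephrin receptors, Epha4 averaged 85.6 ± 10.4 CPM in the cerebellum and 893 ± 36.4 CPM in the hippocampus. Epha6 averaged 25.8 ± 2.93 CPM in the cerebellum and 319 ± 42.8 CPM in the hippocampus, and Epha8 was higher (log2 fold change 3.27 ± 0.34). Netrin, Ntn1, averaged 26.3 ± 5.33 CPM in the cerebellum and 3.69 ± 0.590 CPM in the hippocampus. Of 29 tested cadherins, 7 were higher and 15 lower, with a median of -0.56. Next to Fat2, Cdh15 was higher at 29.2 ± 2.41 CPM in the cerebellum and 0.268 ± 0.536 CPM in the hippocampus, as was Cdh7 at 99.0 ± 15.6 CPM in the cerebellum and 9.45 ± 1.92 CPM in the hippocampus. Cdh9, an adhesion protein of CA3 synapses, was lower at 3.81 ± 1.06 CPM in the cerebellum and 63.4 ± 4.41 CPM in the hippocampus.

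**Figure D4:**
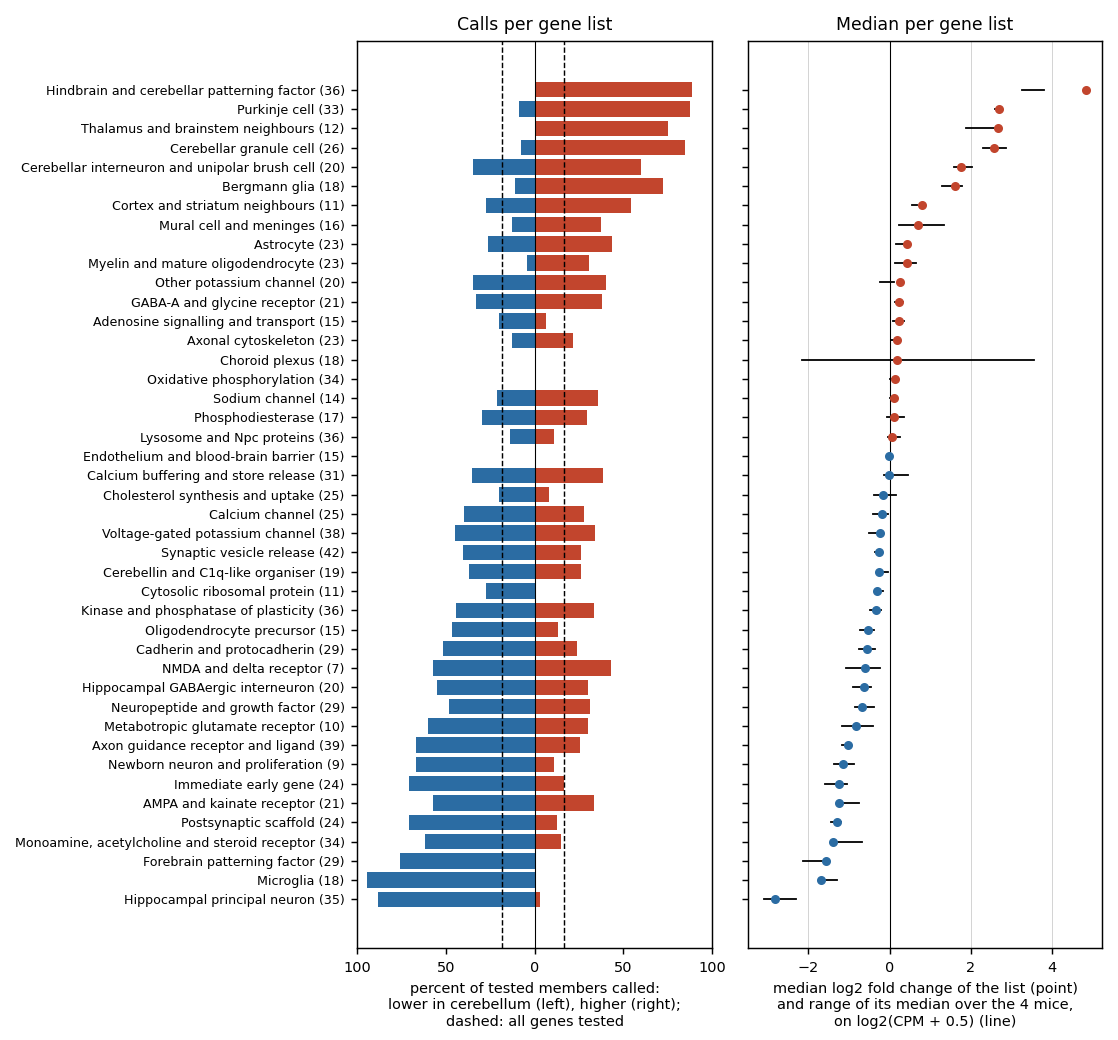
Left panel, percent of the tested members of each gene list called lower (blue, to the left) and higher (red, to the right) in the cerebellum, with dashed lines at the shares of all tested genes, 18.2% and 16.7%; numbers in brackets are the members tested. Right panel, the median fitted log2 fold change of each list (point) and the range over the 4 mice of its median difference on the log2(CPM + 0.5) scale (line), a scale that shortens the differences of low genes such as the hindbrain factors; the choroid plexus line runs furthest, across 0.

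Glial genes differed by cell type. Microglia markers were lower for 17 of 18 tested genes (20 in the list) and higher for none, with a median of -1.68. Tmem119, named after its value was seen, had 7.33, 9.03, 13.4 and 9.62 CPM in the cerebellum, against 34.6, 32.8, 31.1 and 34.0 CPM in the hippocampus. This gave a log2 fold change of -1.78 ± 0.21 (SE, adjusted p = 0.000175). Cx3cr1, the fractalkine receptor, averaged 11.3 ± 1.87 CPM in the cerebellum and 40.0 ± 2.81 CPM in the hippocampus (log2 fold change -1.83 ± 0.18). Aif1 averaged 4.57 ± 1.43 CPM in the cerebellum and 17.1 ± 1.93 CPM in the hippocampus. The summed level of the list was 237.8 to 258.6 CPM in the cerebella and 595 to 678.6 CPM in the hippocampi, with no overlap. Of 23 tested astrocyte genes (25 in the list), 10 were higher and 6 lower, with a median of 0.44, and without mouse 3, 6 were higher and 4 lower. The glutamate transporters of astrocytes moved apart. Slc1a3, that of Bergmann glia, named after its value was seen, was higher at 504 ± 42.6 CPM in the cerebellum and 312 ± 49.4 CPM in the hippocampus (log2 fold change 0.71 ± 0.15), and lost its call without mouse 3 (adjusted p = 0.0538). Slc1a2 was lower at 1164 ± 240.1 CPM in the cerebellum and 3004 ± 515 CPM in the hippocampus (log2 fold change -1.38 ± 0.18). Agt, angiotensinogen, averaged 68.6 ± 1.52 CPM in the cerebellum and 15.7 ± 2.25 CPM in the hippocampus. S100b averaged 224 ± 28.1 CPM in the cerebellum and 70.2 ± 5.20 CPM in the hippocampus.

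Myelin genes were higher for 7 of 23 tested (24 in the list) and lower for 1, with a median of 0.44. Klk6, a protease of oligodendrocytes in hindbrain and spinal cord, had 80.1, 85.0, 64.8 and 84.2 CPM in the cerebellum, against 2.26, 2.03, 4.75 and 2.76 CPM in the hippocampus. The log2 fold change was 4.77 ± 0.29 (SE, adjusted p = 2.83e-06). The other 6 higher genes differed by less, among them the connexin Gjb1 (log2 fold change 0.97 ± 0.18), while Opalin was lower (-0.80 ± 0.14). Mbp, the myelin protein named after its value was seen, averaged 4991 ± 299.9 CPM in the cerebellum and 3834 ± 281 CPM in the hippocampus. It did not pass (log2 fold change 0.38 ± 0.13, adjusted p = 0.0519), though it did without mouse 1 (adjusted p = 0.0271) and without the mouse block (adjusted p = 0.013). Of 15 oligodendrocyte precursor genes, 7 were lower and 2 higher, with a median of -0.53, led by Gpr17 (log2 fold change -1.30 ± 0.20) and Cspg5 (-1.22 ± 0.13). Without mouse 3, 2 of them were lower and none was higher. None of 15 tested endothelial genes passed in either direction with edgeR, DESeq2 or limma-voom, 1 was lower at an unadjusted p under 0.05, and the median was -0.02. Mural and meningeal genes had 6 of 16 higher and 2 lower, with the collagen Col1a1 at 49.8 ± 10.4 CPM in the cerebellum and 23.3 ± 3.34 CPM in the hippocampus; without mouse 3, 3 were higher and 1 lower.

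RNA of neighbouring tissue was present in both sets. Choroid plexus, the epithelium that secretes cerebrospinal fluid and lies against both tissues, had high readings in the hippocampi of mice 1 and 2. Ttr, transthyretin, a protein that it secretes, had 475, 294, 1984 and 2067 CPM in the cerebellum, against 2087, 2701, 23.9 and 45.2 CPM in the hippocampus, so the hippocampus was above the cerebellum in mice 1 and 2 and below it in mice 3 and 4. The summed level of 18 choroid plexus genes was 1215, 839.7, 2759 and 2843 CPM in the cerebella, against 4712, 5063, 210.4 and 219.1 CPM in the hippocampi. The larger cerebellar sums of mice 3 and 4 were mostly Ttr, and no other member differed as widely between the cerebella. Enpp2, the next largest member, had 313, 278, 331 and 369 CPM there. In the hippocampi, every member was higher in mice 1 and 2 than in mice 3 and 4. None of the 18 was called over the 4 mice by edgeR, DESeq2 or limma-voom, and none had an unadjusted p under 0.05. No direction is given here for genes of this list, Enpp2 among the myelin genes included. Over all genes, 2933 were called in mice 3 and 4 alone, a choice made after these values were seen.

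Markers of brainstem and thalamus were higher in the cerebellum for 9 of 12 tested genes (21 in the list) and lower for none. Slc6a2, the noradrenaline transporter, had 8.37, 11.4, 13.0 and 8.76 CPM in the cerebellum and no count in any hippocampus, at least 114-fold higher. Dbh, dopamine beta-hydroxylase, averaged 15.2 ± 5.32 CPM in the cerebellum and 0.5 ± 0.338 CPM in the hippocampus. The choline transporter Slc5a7 averaged 12.6 ± 2.65 CPM in the cerebellum and 0.742 ± 0.210 CPM in the hippocampus. The list summed to 247.1 to 299.5 CPM in the cerebella and to 103.8 to 128.4 CPM in the hippocampi. The serotonergic markers Tph2 and Slc6a4 were not tested, being near 0 in both. How much of the difference in the hindbrain factors, Slc6a5, Glra1 or Klk6 goes with such tissue was not tested. Of 11 tested cortical and striatal genes (16 in the list), 6 were higher and 3 lower, and the higher ones included Scn4b and Penk, which cerebellar neurons also make. The lower ones included Fezf2, listed with the forebrain factors too, at 40.6, 50.8, 52.5 and 60.7 CPM in the hippocampi. How much of the hippocampal readings goes with cortical tissue was not tested. Blood genes could not be judged, since 2 of 8 were tested.

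**Figure D5:**
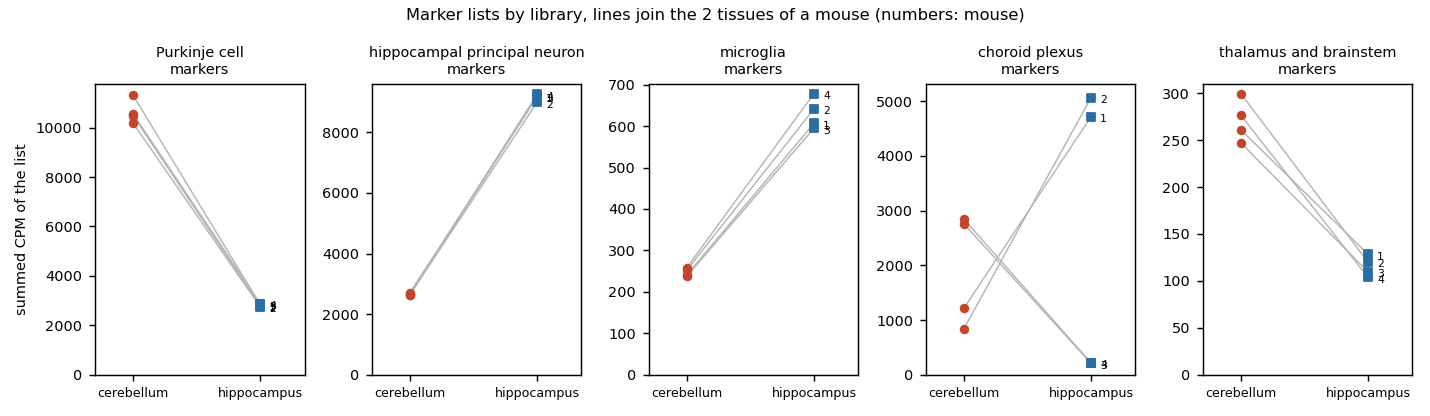
Summed CPM of the members of 5 marker lists (vertical axes) in each library, with the cerebellum as red circles on the left and the hippocampus as blue squares on the right, and a line for each mouse with its number. Purkinje cell and brainstem markers lie higher and hippocampal and microglia markers lower in the cerebellum in every mouse, while the choroid plexus lines cross, lower in mice 1 and 2 and higher in mice 3 and 4. The larger choroid plexus sums in the cerebella of mice 3 and 4 are mostly Ttr.

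None of 34 tested genes of oxidative phosphorylation (37 in the list) passed with edgeR, DESeq2 or limma-voom, with 1 higher at an unadjusted p under 0.05 and a median of 0.13. Without mouse 4, 2 were higher. Of 11 tested ribosomal protein genes (36 in the list), 3 were lower, with a median of -0.31, and none without mouse 2. The other members read near 0 in both tissues and were not tested, which says nothing of their expression. Axonal cytoskeleton genes had 5 of 23 higher and 3 lower, led by the heavy neurofilament Nefh at 454 ± 36.2 CPM in the cerebellum and 112 ± 7.63 CPM in the hippocampus. The tubulin Tuba8 stood at 132 ± 15.8 CPM in the cerebellum and 21.7 ± 4.38 CPM in the hippocampus. Without mouse 2, 2 were higher and 1 lower.

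Npc1, the lysosomal cholesterol transporter that the mutant strain lacks, had 108, 106, 99.4 and 98.2 CPM in the cerebellum, against 63.6, 71.8, 80.5 and 99.8 CPM in the hippocampus. It averaged 103 ± 4.77 CPM in the cerebellum and 78.9 ± 15.5 CPM in the hippocampus, and the difference did not pass (log2 fold change 0.40 ± 0.17, adjusted p = 0.0927). Mouse 4 was the exception to a higher cerebellum, and without it the difference passed (log2 fold change 0.55, adjusted p = 0.0224). In the fit without the mouse block it passed over all 4 mice (adjusted p = 0.0442). Its partner Npc2, a soluble protein that hands cholesterol to Npc1 and was named after its value was seen, did not pass either (log2 fold change 0.35 ± 0.18, adjusted p = 0.161). Of 36 lysosomal genes, 4 were higher and 5 lower, with a median of 0.06, below the background in both directions; without mouse 3, 2 were higher and 2 lower. Of 25 tested genes of cholesterol synthesis and uptake (27 in the list), 2 were higher and 5 lower, with a median of -0.15, and without mouse 3, 2 were lower. Cyp46a1, the enzyme that converts brain cholesterol to 24-hydroxycholesterol for export, had 57.3, 56.3, 62.6 and 67.1 CPM in the cerebellum, against 237, 226, 206 and 238 CPM in the hippocampus (log2 fold change -1.90 ± 0.14, adjusted p = 9.76e-06).

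Dipyridamole blocks phosphodiesterases and adenosine uptake, and the genes of both families were listed whether or not the drug acts on each of them. Pde1c had 135, 122, 135 and 138 CPM in the cerebellum, against 7.13, 7.15, 8.28 and 8.12 CPM in the hippocampus. That is a log2 fold change of 4.11 ± 0.16 (SE, adjusted p = 3.61e-07). Pde1a, a calcium-dependent phosphodiesterase like Pde1c, had 8.02, 4.52, 5.01 and 5.11 CPM in the cerebellum, against 135, 169, 159 and 182 CPM in the hippocampus. The test gave a log2 fold change of -4.83 ± 0.24 (SE, adjusted p = 9.90e-07). Neither overlapped, and the directions were opposite. Pde5a, which degrades cyclic GMP, averaged 47.0 ± 3.99 CPM in the cerebellum and 9.91 ± 1.86 CPM in the hippocampus (log2 fold change 2.25 ± 0.20). Of 17 tested phosphodiesterases (18 in the list), 5 were higher and 5 lower, with a median of 0.10. The adenosine A1 receptor, Adora1, had 4.36, 5.52, 7.33 and 5.84 CPM in the cerebellum, against 64.6, 51.3, 38.8 and 36.9 CPM in the hippocampus. The difference was -3.04 ± 0.26 (SE, adjusted p = 2.49e-05) on the log2 scale. Of 15 tested genes of adenosine signalling and transport (22 in the list), 1 was higher and 3 were lower, with a median of 0.23; the nucleoside transporters Slc29a1 to Slc29a4 were not called. Without mouse 4, 4 were higher, and without mouse 2, none was.

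The difference between tissues was itself compared between Npc1+/+ and vehicle-treated Npc1-/- mice in a fit over all 24 libraries with the sex of the mutants as a term. It differed for 155 of 13436 genes (1.15%) at an adjusted p of 0.05 or less, with a more positive value in Npc1+/+ mice for 82 and a more negative one for 73. Of 4399 genes called between the wild-type tissues and tested here, 107 (2.43%) were among them. A regional difference that did not pass this comparison was not shown to be the same in the mutants. Without mouse 3 of the vehicle-treated Npc1-/- group, 27 genes passed, and without mouse 3 of the Npc1+/+ group, 90. Mouse 3 was the only female of the vehicle-treated Npc1-/- group, and all Npc1+/+ mice were female, so without it the sex term rests on the dipyridamole-treated mice alone. Genotype and the age of 63 or 65 days cannot be told apart. Mouse 2 of the vehicle-treated Npc1-/- group had 1833609 counts in the cerebellum and 3844971 in the hippocampus, fewer than any other mouse of the series.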

How the data were processed

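Per the labels, total RNA of hippocampi and cerebella was reverse-transcribed, read with the Ion AmpliSeq panel for the mouse transcriptome and sequenced on the Ion S5. The authors deposited raw counts per gene for each library, made with featureCounts 2.0.3 on GRCm39 with GENCODE M34 per the file headers; FastQC 0.11.9, Trimmomatic 0.39 and STAR 2.7.9a are named in the submitters' processing notes. Whether the counting used strand is not given in the sources used here, so overlapping and antisense genes cannot be told apart. Of 57126 gene IDs, 51884 have a symbol, and the others hold 0.209% of the wild-type counts.

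The counts of the 8 libraries were tested in R 4.3.3 with edgeR 4.0.16 (TMM factors, filterByExpr, robust quasi-likelihood fit) with the mouse as a block, since the labels give each tissue the number of its animal. Their residuals did not deviate together (correlations of the deviations of the 2 tissues of a mouse -0.476, 0.0927, 0.0212 and -0.529 over 10518 genes). The cerebella of mice 1 to 4 correlated best with the hippocampi of mice 4, 1, 4 and 1, so none with that of its own mouse. Values paired by mouse therefore rest on the labels, and the pairing itself was not tested. Without the block 5364 genes were called. The regional difference was compared between genotypes in 1 fit over 24 libraries with a tissue-by-sex term. Gene lists and members were chosen with earlier results of these data known. Genes were named by a rule: Npc1, 15 genes at each end of the ranking by log2 fold change among called genes of at least 5 CPM on average with no overlap between tissues, up to 4 members each way per list, and all receptor subunits and synapse organisers; other names are said to be chosen after their values were seen or were not tested. Some named genes are not reported here; they stay in all counts and fits. Where all libraries of a tissue are at 0, a bound uses 3 counts over the group, and ratios on 1 to 3 counts have exact 95% binomial intervals, which cover counting error only. Changes of 1.5, 2 and 4-fold put into counts simulated for the comparison of tissues (12468 genes) were called for 10.4%, 52.2% and 98.5% of 67, 67 and 66 genes, with 11 false calls. No other gene differed between tissues in the simulated counts, whereas 34.9% of genes were called in the data. The Benjamini-Hochberg correction depends on that share, so these rates need not hold for the data.

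Alternatives were no mouse block, RLE factors, library totals, no filter, a minimum of 5 CPM, DESeq2 1.42.0, limma-voom (limma 3.58.1), all 24 libraries in the fit, a choroid plexus score as covariate, and leaving out each mouse; mice 1 and 2 alone and mice 3 and 4 alone were added after seeing the data. The batch field of the labels holds an Ion code that differs for each of the 8 wild-type libraries and so cannot be fitted: 101, 103, 109 and 111 for the cerebella and 102, 104, 110 and 112 for the hippocampi of mice 1 to 4.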

Additional observations from a re-analysis of the deposited data

Results flagged for a closer look

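In 7 of 149 groups of 4 libraries, 1 library stood apart from the other 3 beyond Dixon's critical value, where chance gives about 5% of groups. Low readings made up 4 of them, and since their other 3 libraries are at 0, any read would have stood apart and the share of chance does not hold for them: Gabra6 had 0.361 CPM in the hippocampus of mouse 1 and Fat2 had 0.452 CPM there, with 0 in the other hippocampi, while Tbr1 had 0.365 CPM in the cerebellum of mouse 4 and Emx1 had 0.100 CPM in that of mouse 2, with 0 in the other cerebella. Dao had 53.4 CPM in the cerebellum of mouse 2 and 42.8 to 44.2 CPM in the others. The mean log2 level of the forebrain factors was 2.57 in the cerebellum of mouse 4 and 2.62 in the others, and that of the myelin genes was 5.58 in the hippocampus of mouse 4 and 5.85 to 5.89 in the others.

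The difference between cerebellum and hippocampus was itself different between Npc1+/+ and vehicle-treated Npc1-/- mice for 29 of 310 named genes (edgeR test over all genes). That test was passed by 1.15% of all genes and 2.43% of those called between the wild-type tissues, from which most names were taken. Gene lists and members were chosen with earlier results of these data known, and some genes after their values were seen. The share of named genes therefore cannot be weighed against these shares. The Npc1-/- mice were 63 days old with 1 female, mouse 3, against 65 days and 4 females in the Npc1+/+ group; without that mouse 27 genes of all tested passed. Values are that difference in log2 units, Npc1+/+ minus Npc1-/-. Their sign does not tell whether the gap between tissues shrank or widened. In absolute size the gap was smaller in Npc1-/- mice for 17 of the 29 genes and wider for 12. With positive values, Calb1 went from 2.51 in Npc1+/+ to -0.59 in Npc1-/- mice. The gaps of Itpka (-1.69 to -5.36) and Cck (-3.92 to -5.08) widened. Among Purkinje cell genes, these had positive values: Calb1 3.10 (adjusted p = 1.04e-05), Car8 4.03 (adjusted p = 0.000207), Itpka 3.67, Itpr1 2.74 and Atp2a3 2.68. Calb1 averaged 52.3 CPM in Npc1-/- cerebella and 667 CPM in Npc1+/+ cerebella, and 96.1 CPM and 117 CPM in the hippocampi of the same groups. Other neuronal genes with a positive value were Tuba8 2.49, Kcnip1 1.55, Dusp5 1.67, Fgf7 3.47, Eomes 4.61, Cck 1.16 and Pde5a 1.60, and Gli1 2.52 and Slc1a3 1.24 among genes of Bergmann glia. Negative values belonged to the oligodendrocyte genes Mbp -2.32, Opalin -2.29, Gjb1 -2.13 and Enpp6 -1.61, to the astrocyte genes Gfap -1.95, Agt -1.71 and Slc6a9 -0.92, to the microglia genes Cx3cr1 -1.37 and Aif1 -1.42, and to Unc5b -1.91, Cpne7 -1.98 and Kcnt2 -1.30. Mbp averaged 7790 CPM in Npc1-/- cerebella and 4970 CPM in Npc1+/+ cerebella, and 1150 CPM and 3800 CPM in the hippocampi of the same groups. The Npc1-/- averages include mouse 2 of that group, with 1833609 counts in the cerebellum and 3844971 in the hippocampus. The adjusted p-values of the 26 genes given here ran up to 0.0351.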

How the results depend on the processing

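No called gene named in the text changed its direction in any alternative. In mice 1 and 2 alone, an alternative chosen after seeing the data, Ttr, which was not called over the 4 mice, was called with a log2 fold change of -2.66. List medians changed sign 26 times, in 8 lists. That of the other potassium channels was -0.26 without the replicate block, -0.03 with limma-voom and -0.39 without mouse 3, against 0.26; that of the hippocampal GABAergic interneurons was 0.02 above 5 CPM; that of the NMDA and delta receptors was 0.67 without a filter, against -0.60; and those of calcium buffering and of endothelium, near 0, were 0.07 with library totals. The other changes were in the lists of potassium channels, calcium buffering, endothelium, choroid plexus, blood and cholesterol. The number of called genes lay between 2740 and 5131 when 1 mouse was left out, that of higher genes between 1252 and 2485 and that of lower genes between 1488 and 2646, with the lowest of each without mouse 3. In mice 3 and 4 alone, 2933 genes were called and 1357 were higher. Without the replicate block 5364 genes were called, within 1.5 times of the 4400 with it. The counts of genes different by at least 2-fold stayed within 1.5 times of the main value in every alternative. Library totals in place of TMM moved the median of all genes to 0.105 and gave 2518 higher and 2001 lower genes. The number of genes whose regional difference differed between genotypes was 386 without the tissue-by-sex term and 329 with the 16 vehicle libraries alone, 125 without the replicate block, and between 27 and 227 with 1 mouse left out; why it moved was not tested. Of 310 named genes, 193 values over all alternatives lost the call, 32 gained it and 4417 kept both sides. Of the list medians, 98 moved by more than their SD over the mice and 576 did not. In the self-test of the genotype comparison (13235 genes), a 2-fold change was called for 16.4% of 67 genes, so smaller differences are mostly not detectable at this size.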

Other observations

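A pair of genes differed between mice in both tissues, and they were picked after their values were seen. Hnrnpm, a splicing regulator, had 22.2, 21.2, 144 and 159 CPM in the cerebella of mice 1 to 4, against 37.3, 37.7, 130.1 and 71.9 CPM in the hippocampi. Shank2, a postsynaptic scaffold, had 94, 137, 300 and 326 CPM in the cerebella, against 166, 192, 299 and 320.4 CPM in the hippocampi. In both tissues mice 1 and 2 were lower than mice 3 and 4 for both genes. No test was made of this split.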
